A study of Mus musculus with 18 samples.

Results

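The contrast described here asks whether a compound labelled AQ, given in the drinking water, had a different effect on the skeletal muscle transcriptome of wild-type mice on a high-fat diet (HFD) than on normal chow. It is a difference of differences for every gene, the AQ effect on HFD minus the AQ effect on chow, on log2(CPM + 1), where CPM is the deposited, depth-scaled read count of a gene. It uses 12 of the 18 libraries of the series, with 3 wild-type libraries in each of 4 groups: chow, chow with AQ, HFD, and HFD with AQ. All mice were kept on their diet for 10 weeks, and the AQ groups drank it ad libitum. The other groups were mice with a Nurr1 transgene and that line's wild-type controls, both on HFD. They did not enter the contrast itself, but counted in the filter on low genes, in the estimate of the spread between libraries and in the fits of most alternatives. The controls also served as another untreated HFD group in alternatives described further on. The series concerns NURR1, the orphan nuclear receptor encoded by Nr4a2, in muscle and energy balance. The labels do not spell out AQ or its dose, which muscle was taken, or the sex, litter, age or day of collection of the mice. Libraries carry numbers as biological replicates within their group, and p-values measure the spread between those libraries.

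A negative value of the contrast, called the interaction below, means that the AQ effect was lower on HFD than on chow, and a positive value that it was higher. An interaction can come from opposite effects in the diets or from an effect in 1 diet alone, so the level in each of the 4 groups is given beside it. Where a group is said to lie above, below or outside other libraries, only the 12 libraries of the contrast are meant. Skeletal muscle consists of multinucleate fibres held in a connective tissue of collagens, fibrillin and fibronectin, which is made largely by resident fibroblasts. Each fibre lies in a basement membrane built on type IV collagen, laminin and perlecan. Muscle burns fatty acids and glucose in its mitochondria, and a high-fat diet raises the supply of fatty acids to it.

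The libraries of the contrast held 10404895 to 16082994 reads, recovered from the deposited values, and 3 reads in a library lay at 0.191 to 0.277 CPM. The tissue label was checked on muscle genes. Myh4, a fast fibre myosin heavy chain, ranged from 37721 to 59041 CPM, the skeletal actin gene Acta1 from 26075 to 38460 CPM and Ckm, muscle creatine kinase, from 19100 to 26686 CPM, while Myh6, a cardiac myosin heavy chain, did not exceed 2.49 CPM. In bulk tissue, fewer cells of a type and less RNA per cell cannot be told apart, which holds for every result below. The gene for NURR1 itself, Nr4a2, was low in every group. It stood at 1.66, 1.11 and 1.54 CPM on chow, 4.79, 1.26 and 2.05 CPM on chow with AQ, 1.59, 1.49 and 1.07 CPM on HFD, and 0.828, 1.26 and 2.03 CPM on HFD with AQ. Its groups overlapped, and its interaction of -0.52 ± 0.38 (SE) missed the threshold (limma adjusted p = 0.563). The related receptor genes Nr4a1 (-0.64 ± 0.31, limma adjusted p = 0.367) and Nr4a3 (-1.47 ± 0.53, limma adjusted p = 0.222) missed it too.

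The AQ effect differed between the diets in 89 of 12524 genes (0.711%), at a limma p below 0.05 after Benjamini-Hochberg adjustment over all genes. In 73 genes (0.583%) the AQ effect was lower on HFD, and in 16 (0.128%) it was higher. Without adjustment, 1057 genes (8.44%) had a p below 0.05 in the lower direction and 713 (5.69%) in the higher direction. Among the 73 were genes of collagens, fibrillin, fibronectin and the basement membrane, complement C4b, the lipid desaturase Scd1 and the clock gene Npas2. Among the 16 were the bicarbonate transporter gene Slc4a8, the monooxygenase gene Fmo2, the alcohol dehydrogenase gene Adh1 and the purine receptor gene P2ry1. The number of calls depended on single libraries, while each of the 89 kept its direction in every setting that gave it a value. Leaving out 1 library at a time left 3 to 103 calls. They numbered 48 without chow library 3, 22 without HFD library 1, 44, 9 and 5 without libraries 1, 2 and 3 of chow with AQ, and 16, 35 and 3 without libraries 1, 2 and 3 of HFD with AQ. Of the 89 genes, only 3 were called in all 12 of these fits, and 8 in at least 10 of them.

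**Figure D1:**
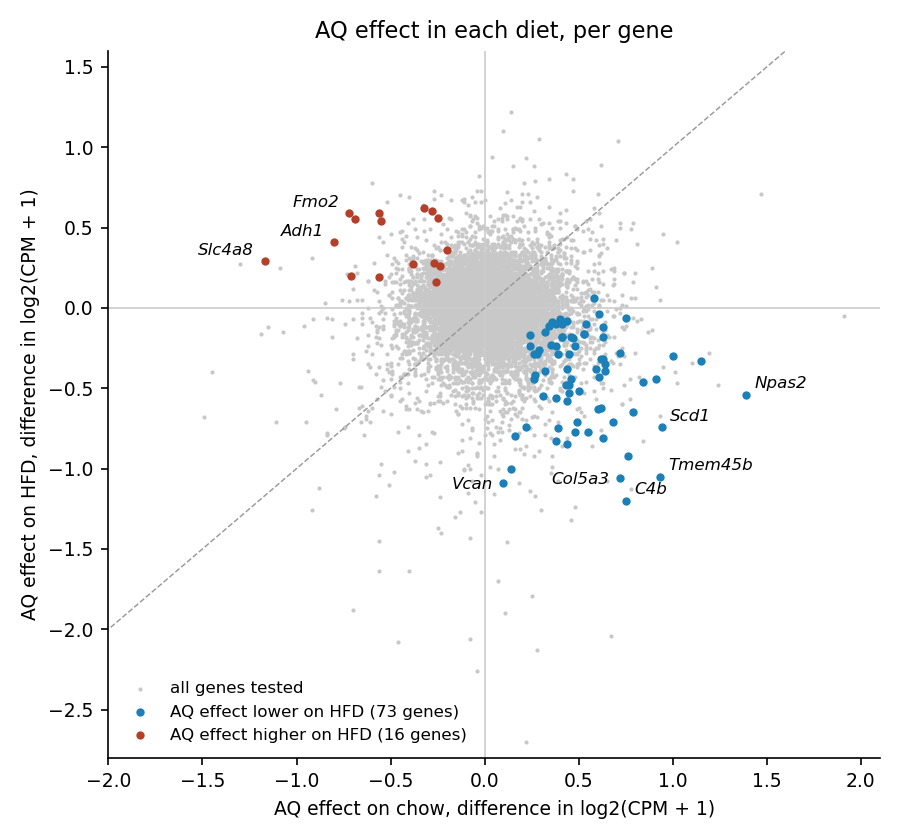
Each point is a gene, placed by its AQ effect on chow (x axis) and on HFD (y axis), both as differences in log2(CPM + 1) between means of 3 libraries, with genes past the interaction threshold in blue (73 lower on HFD) and red (16 higher on HFD). The dashed line marks equal effects, and the called genes lie almost entirely in the quadrants of opposite sign.

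The called genes are described here by their group levels. Of the 73 lower genes, 62 had their highest group mean on chow with AQ and the other 11 on HFD, and 65 had their lowest mean on HFD with AQ. The AQ effects of 72 of the 73 had opposite signs in the diets, with a median of 0.46 on chow and -0.38 on HFD. The exception was Jup, which encodes the junction protein plakoglobin and had an AQ effect of 0.58 ± 0.08 on chow and 0.06 ± 0.08 on HFD. All 16 higher genes had AQ effects of opposite sign, with medians of -0.47 on chow and 0.38 on HFD. Over all 12524 genes tested the signs were opposite in 51.7%. The highest mean was on chow with AQ in 3732 of them and the lowest on HFD with AQ in 3453. Choosing genes by the size of the difference favours opposite signs and this order of means, so nothing is read from the higher shares.

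Within a single diet, 39 of the 89 passed the threshold. On chow, 37 of them did, where 139 of all genes (1.11%) were called. On HFD 2 did, Vcan and the gene model 1500017E21Rik, where 6 of all genes (0.0479%) were called. No gene was among the 89 and called in both diets, and 50 were called in neither. Of the 89, 59 had an unadjusted limma p below 0.05 in both diets, against 324 of all 12524 genes. The genes were chosen on the difference between these same effects, which favours such a count, so nothing is read from it.

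Seen the other way round, the contrast is the diet effect under AQ minus the diet effect without AQ. Of the 89 genes, 84 were called between HFD and chow among mice on AQ, where 1324 of all genes (10.6%) were called, 613 higher and 711 lower on HFD. Without AQ 2 of the 89 were called, where 6 of all genes (0.0479%) were. The median diet effect of the 73 lower genes was 0.14 without AQ and -0.64 with it. For the 16 higher genes it was -0.01 without AQ and 0.83 with it. These effects share their libraries with the interaction and are given as its parts.

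Library by library, the AQ groups stood at opposite ends. In 38 of the 73 lower genes all 3 libraries of chow with AQ lay above the other 9, against 593 of all genes (4.73%), and in 30 all 3 libraries of HFD with AQ lay below the other 9, against 236 of all genes (1.88%). The AQ libraries of both diets did not overlap in 72 of the 73, against 4160 of all genes (33.2%). The untreated libraries of both diets did not overlap in 22, against 1556 of all genes (12.4%). The genes were chosen on these same libraries, so the counts describe them and test nothing.

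**Figure D2:**
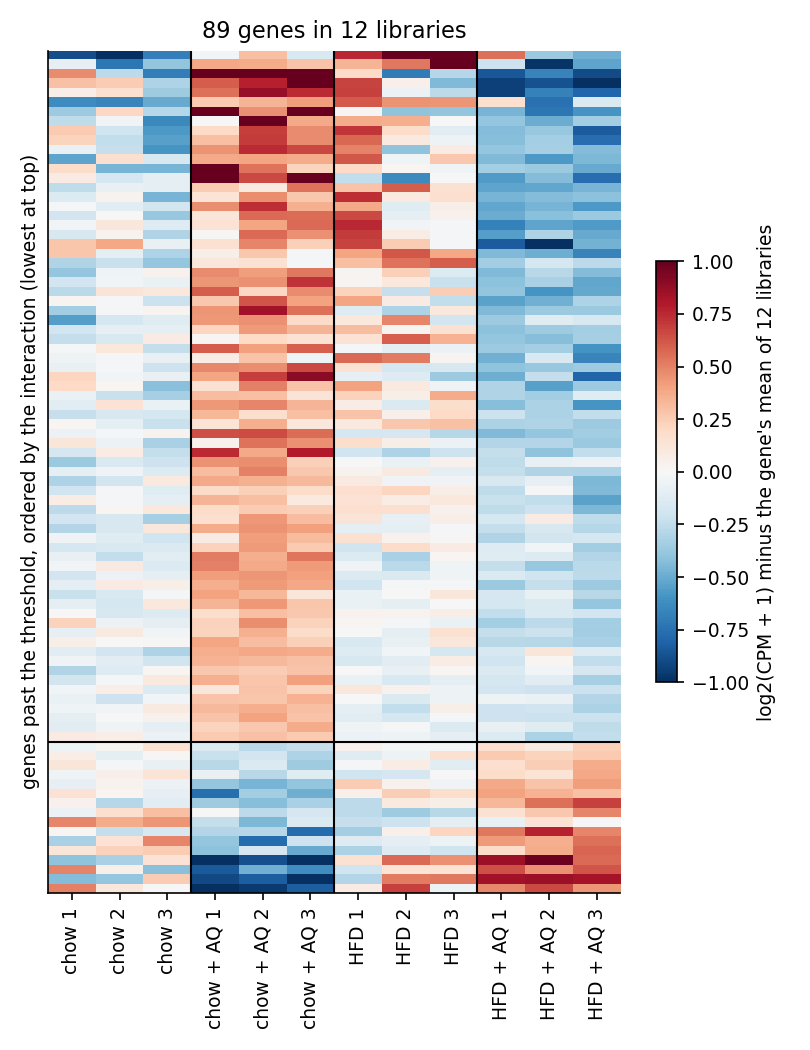
Rows are the 89 genes with a diet-dependent AQ effect and columns the 12 libraries by group, with colour for log2(CPM + 1) minus the gene's mean over the 12 libraries. Of the 73 lower genes, 62 have their highest mean on chow with AQ and 65 their lowest on HFD with AQ, and of the 16 higher genes 15 have their lowest mean on chow with AQ and 15 their highest on HFD with AQ. Choosing genes by the interaction in these same libraries favours this order.

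Some other measures differed between the same groups. The correlation across genes of a library's level with gene GC content was 0.06, 0.28 and 0.10 in the libraries of chow with AQ and between -0.38 and -0.03 in the other 9. The 73 lower genes had a median GC content of 55.9% and 15 of the 16 higher genes one of 47.3%, beside 49.8% over all genes. A clock score, the log2 level of Arntl less that of Dbp, was between -1.62 and -0.24 on chow with AQ, between -4.65 and -3.96 on HFD with AQ, between -3.93 and -3.43 on HFD, and -0.65, -2.89 and -4.37 on chow. The hour of collection is not given in the sources used here. With the GC trend of each library removed, 25 genes were called, all of them among the 89. With the clock score as a covariate 30 were called, 19 of them among the 89. The median interaction of the 73 lower genes was -0.93, and it was -0.81 with the GC trend removed and -0.86 with the clock score. For the higher genes it was 0.90, 0.91 and 0.86 in the same order, 1 of the 16 having no GC value. The genes called under both were Scd1, 1500017E21Rik, Atp1b2, Naca, Zyx, Polr2a and Slc4a8, a set picked out after its values were seen.

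**Figure D3:**
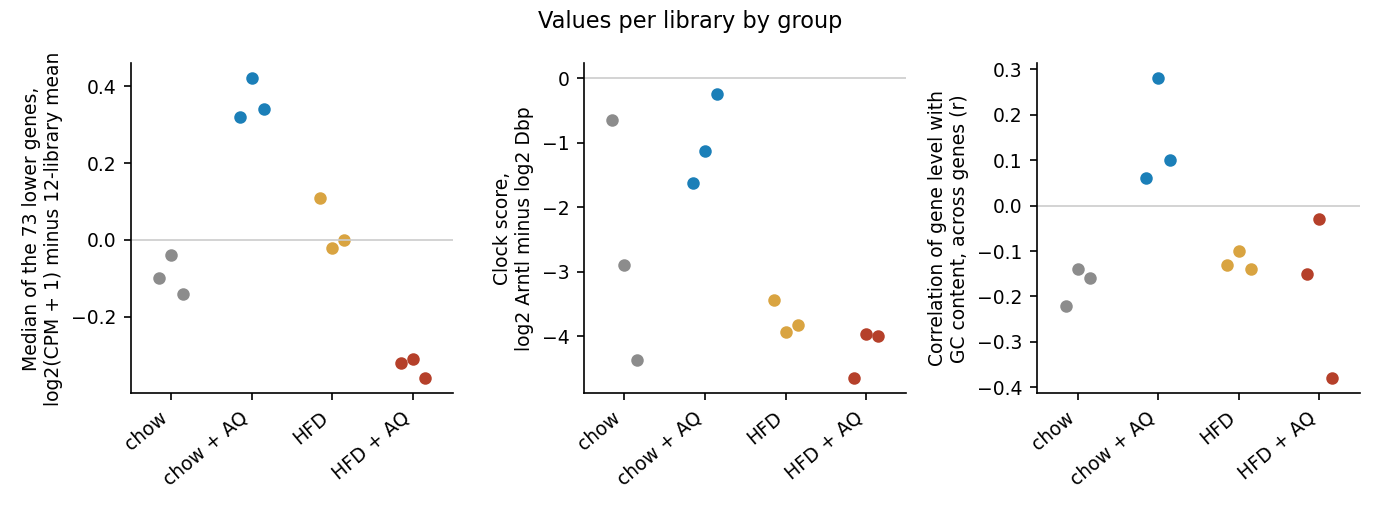
Each point is a library, in 4 groups of 3: the median over the 73 lower genes of log2(CPM + 1) minus the 12-library mean (left), the clock score (middle) and the correlation r across genes of level with GC content (right). The libraries of chow with AQ are the highest in the left and right panels, and those of HFD with AQ the lowest in the left panel, at -0.36 to -0.31.

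The promoters of 3 called genes are printed because they stand for the patterns found: Col5a3 for the matrix genes, Naca for the genes called without any single library, and Slc4a8 for the genes in the higher direction. Each is the 250 bases before the start site in RefSeq (GRCm38.p6), 5′ to 3′ on the gene's strand. Capitals mark a CCAAT box (the NF-Y motif, CCAAT) or a GC box (the Sp1 motif, GGGCGG), found on either strand. The windows are chr9:20815068-20815317 (minus strand) for Col5a3, chr10:128035096-128035345 (plus strand) for Naca and chr15:100761497-100761746 (plus strand) for Slc4a8.
Col5a3: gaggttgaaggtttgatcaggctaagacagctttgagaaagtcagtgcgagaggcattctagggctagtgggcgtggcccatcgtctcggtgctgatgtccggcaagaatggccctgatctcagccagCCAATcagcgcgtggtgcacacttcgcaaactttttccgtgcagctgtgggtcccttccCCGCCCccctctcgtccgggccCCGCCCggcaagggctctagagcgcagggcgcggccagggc
Naca: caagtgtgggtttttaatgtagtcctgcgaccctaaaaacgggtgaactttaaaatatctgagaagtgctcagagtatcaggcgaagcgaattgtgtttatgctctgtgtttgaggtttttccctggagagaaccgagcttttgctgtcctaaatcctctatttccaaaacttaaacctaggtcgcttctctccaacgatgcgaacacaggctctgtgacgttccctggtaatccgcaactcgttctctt
Slc4a8: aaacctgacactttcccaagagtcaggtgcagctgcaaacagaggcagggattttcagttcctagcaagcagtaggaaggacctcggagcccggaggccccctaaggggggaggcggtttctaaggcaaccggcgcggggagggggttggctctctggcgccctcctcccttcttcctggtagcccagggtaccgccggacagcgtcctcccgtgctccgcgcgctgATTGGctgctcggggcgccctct
The Col5a3 window held 1 CCAAT box and 2 GC boxes, that of Slc4a8 held 1 CCAAT box, and in that of Naca none of the motifs searched was found.

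Windows were matched for 55 of the 73 lower and 12 of the 16 higher genes, and for 9438 of the genes tested. A GC box was found in 38 of the 55 lower genes (69.1%), 6 of the 12 higher genes (50%) and 64.2% of the tested genes matched. A CCAAT box was found in 36.4%, 41.7% and 40% of them. The E-box bound by clock factors, CACGTG, was in 7 lower genes (12.7%), in 0 higher genes and in 10.1% of the tested genes. The AP-1 motif TGANTCA was in 9.09% of the lower and 5.44% of the tested genes, and the TATA box TATAAA in 12.7% and 8.29%, with 0 among the higher genes for both. In the whole promoter table of 27025 genes the shares were 35.4% for the GC box, 37.5% for the CCAAT box, 6.86% for the E-box, 7.82% for AP-1 and 14.3% for the TATA box. All motifs were searched on both strands, and a match is a description of these letters and not a bound site.

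Collagen genes stood out in the lower direction. Of 20 collagen chain genes measured, 18 had a negative interaction and 8 passed the threshold, all lower (Col4a1, Col4a2, Col5a1, Col5a3, Col6a2, Col6a3, Col15a1 and Col18a1). Their median interaction was -1.09, beside 0.01 over all genes tested, of which 0.583% were called lower. Of all 12524 genes tested, 6103 had a negative and 6421 a positive interaction, the background for sign counts in this and later lists. The median AQ effect of the 20 was 0.36 on chow and -0.66 on HFD.

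Col5a3, a chain of the type V collagen that sits within collagen fibrils, lies on chromosome 9 from 20770050 to 20815067 (GRCm38, minus strand). It stood at 55.6, 54.1 and 36.3 CPM on chow and at 69.3, 78.1 and 91.8 CPM on chow with AQ. On HFD it was at 72.6, 46.9 and 33.0 CPM, and on HFD with AQ at 23.1, 24.3 and 20.4 CPM. The 3 libraries of HFD with AQ lay below all others, and those of chow with AQ lay above all but HFD library 1. The interaction was -1.78 ± 0.33 (limma adjusted p = 0.0253), and it was called in 8 of the 12 fits that each left out a library. HFD with AQ was at 0.445 times the mean of HFD, and chow with AQ at 1.64 times the mean of chow.

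The type IV collagen genes Col4a1 and Col4a2, which form the network of the basement membrane, are neighbours on opposite strands of chromosome 8. Col4a1 was at 284, 205 and 158 CPM on chow, 271, 383 and 329 CPM on chow with AQ, 388, 269 and 220 CPM on HFD, and 175, 182 and 132 CPM on HFD with AQ. The AQ groups did not overlap each other, but each overlapped the untreated libraries of its diet or of the other diet. The interaction was -1.44 ± 0.31 for Col4a1 (limma adjusted p = 0.0381) and -1.39 ± 0.26 for Col4a2 (limma adjusted p = 0.0267). Of the 12 fits that left out a library, Col4a1 was called in 3 and Col4a2 in 7. Untreated libraries of both diets had wide spreads, with an SD of 64 CPM around 216 CPM on chow and of 86 CPM around 292 CPM on HFD for Col4a1.

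Col15a1 and Col18a1 encode the basement membrane collagens whose ends are cut to peptides that act on vessels. Col15a1 was at 62.6, 55.6 and 43.2 CPM on chow, 89.4, 110 and 104 CPM on chow with AQ, 92.5, 49.3 and 69.2 CPM on HFD, and 49.8, 51.8 and 48.3 CPM on HFD with AQ. Here the higher level on chow with AQ was the larger side, with an AQ effect of 0.91 ± 0.18 on chow (limma adjusted p = 0.0286) and -0.44 ± 0.18 on HFD (limma adjusted p = 0.358). Col18a1 had an interaction of -1.25 ± 0.25, with 14.7 ± 2.7 CPM (SD, n = 3) on chow, 20.7 ± 2.5 CPM on chow with AQ, 21.8 ± 5.9 CPM on HFD and 12.1 ± 0.22 CPM on HFD with AQ. The type VI chains Col6a2 (-1.19 ± 0.24) and Col6a3 (-1.23 ± 0.24), which link the basement membrane to the interstitium, had their highest means on chow with AQ (127 and 125 CPM) and their lowest on HFD with AQ (72.0 and 68.8 CPM).

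The most abundant fibril collagens did not pass. Col1a1 had an interaction of -1.35 ± 0.53 (limma adjusted p = 0.256), Col1a2 one of -0.74 ± 0.44 (limma adjusted p = 0.465) and Col3a1 one of -1.38 ± 0.34 (limma adjusted p = 0.0707). HFD library 1 was high for them, at 673 CPM for Col1a1 where the chow libraries were at 234, 308 and 173 CPM. It was also the highest of its group for Col5a3, Col4a1 and Col15a1. Without that library the median interaction of the collagen list was -0.83, the smallest size in any setting. With the GC trend removed the median was -1.03 and with the clock score -0.89. None of the 8 called collagen genes passed the threshold in either setting. Their limma adjusted p was 0.0511 to 0.0712 with the GC trend removed and 0.0835 to 0.148 with the clock score.

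Most other matrix genes had values of the same sign. Of 31 measured, 29 had a negative interaction and 6 passed the threshold, all lower (Fbn1, Fn1, Vcan, Loxl1, Mfap5 and Hspg2), with a median of -0.51. Fbn1, the fibrillin of elastic microfibrils, was at 80.7, 86.0 and 60.0 CPM on chow, 113, 142 and 129 CPM on chow with AQ, 124, 73.6 and 64.0 CPM on HFD, and 39.8, 47.8 and 44.0 CPM on HFD with AQ. All libraries of HFD with AQ lay below the other 9. Its interaction was -1.68 ± 0.29 (limma adjusted p = 0.0232). Fn1, which encodes fibronectin, was at 120 ± 4.8 CPM on chow (SD, n = 3), 164 ± 12 CPM on chow with AQ, 147 ± 14 CPM on HFD and 101 ± 2.7 CPM on HFD with AQ, an interaction of -0.98 ± 0.18 (limma adjusted p = 0.0253). Loxl1, a lysyl oxidase that crosslinks elastin, had an interaction of -1.25 ± 0.21 and was called in 10 of the 12 fits that left out a library. Of the same 12 fits, Fbn1 was called in 8, Fn1 in 7, Hspg2 in 6, Vcan in 3 and Mfap5 in 2. None of the 6 passed with the clock score as a covariate (limma adjusted p = 0.0549 to 0.130). With the GC trend removed Fbn1, Fn1, Vcan and Loxl1 passed, and Mfap5 and Hspg2 did not.

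Vcan, the large proteoglycan versican, differed from these in where the change lay. It was at 16.3, 17.6 and 12.5 CPM on chow and 14.9, 19.0 and 15.8 CPM on chow with AQ, which overlapped. On HFD it was at 21.7, 16.0 and 13.0 CPM, and on HFD with AQ at 7.01, 5.81 and 9.24 CPM, below all other libraries. The AQ effect was 0.10 ± 0.18 on chow (limma adjusted p = 0.834) and -1.09 ± 0.18 on HFD (limma adjusted p = 0.0267), and the interaction was -1.19 ± 0.25 (limma adjusted p = 0.0374). Hspg2, the basement membrane proteoglycan perlecan, showed the other form, with 311 ± 20 CPM on chow, 452 ± 42 CPM on chow with AQ, 375 ± 27 CPM on HFD and 338 ± 42 CPM on HFD with AQ. Its AQ effect was 0.53 ± 0.10 on chow (limma adjusted p = 0.0216) and -0.16 ± 0.10 on HFD (limma adjusted p = 0.584). Outside the lists, Cilp, the cartilage intermediate layer protein gene, was also called lower (-1.44 ± 0.31), as were the laminin chains Lamb2 (-0.66 ± 0.13) and Lamc3 (-0.90 ± 0.19), which were picked out after their values were seen. Of the 12 fits that left out a library, Cilp was called in 4, Lamb2 in 4 and Lamc3 in 1.

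Of 15 measured matrix proteases and inhibitors, 13 had a negative interaction and 0 passed. An unadjusted limma p below 0.05 was found for 6 in the lower and 1 in the higher direction, beside 8.44% and 5.69% of all genes. By edgeR 0 of the 15 passed and by DESeq2 1. Mmp14, a membrane-bound collagenase, was at 14.7 ± 2.5 CPM on chow, 23.1 ± 1.1 CPM on chow with AQ, 16.7 ± 3.8 CPM on HFD and 11.7 ± 1.0 CPM on HFD with AQ, an interaction of -1.10 ± 0.28 (limma adjusted p = 0.0734). Of 20 genes of TGF-beta and growth signalling, 14 had a negative interaction, with a median of -0.17, and 1 passed, the IGF-binding protein gene Igfbp4 (-0.68 ± 0.15, limma adjusted p = 0.0416).

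Markers of other cell types were measured beside these genes. The 12 fibroblast markers, which include the matrix genes Fbn1, Col1a1, Col1a2, Col3a1 and Mfap5, summed to 3151 to 3723 CPM on chow, 3416 to 4175 CPM on chow with AQ, 3447 to 5191 CPM on HFD and 2804 to 3312 CPM on HFD with AQ. Of the 12, 9 had a negative interaction, 2 passed (Fbn1 and Mfap5), and the median was -0.61. DESeq2 called 4 of them and edgeR 2, and 7 in the lower direction had an unadjusted limma p below 0.05, beside 8.44% of all genes. The 12 endothelial markers had 8 negative values, and their median of -0.10 turned to 0.10 with the clock score as a covariate. Of them 0 passed in limma or edgeR and 1 in DESeq2. An unadjusted limma p below 0.05 was found for 3 in the lower and 1 in the higher direction, beside 8.44% and 5.69% of all genes. No measured marker was at 0 in any library of these lists. The part of cell composition in the matrix result was not tested.

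Complement and leukocyte genes had mostly negative values, with a single call. C4b, a complement component cleaved early in the classical pathway, was at 11.7, 7.17 and 9.25 CPM on chow and 16.6, 16.4 and 15.4 CPM on chow with AQ. It was at 16.0, 18.4 and 26.0 CPM on HFD and 10.6, 5.81 and 8.32 CPM on HFD with AQ. In both diets the AQ libraries did not overlap the untreated ones, higher on chow and lower on HFD, so that HFD with AQ overlapped chow and chow with AQ overlapped HFD. The interaction was -1.94 ± 0.36 (limma adjusted p = 0.0253). C4a, a near-identical neighbour, has no row in the table used here, and how reads shared between both were counted is not given in the sources used here.

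Of the 17 complement genes measured, 14 had a negative interaction and C4b was the only limma call, with a median of -0.55, where 0.583% of all genes were called lower. Of the 17, edgeR called 1 and DESeq2 2, and 8 had an unadjusted limma p below 0.05, all lower, beside 8.44% of all genes. All 11 leukocyte and macrophage markers measured were negative, with a median of -0.72, and 0 passed in limma, edgeR or DESeq2. Of the 11, 8 had an unadjusted limma p below 0.05, beside 8.44% of all genes in the lower direction. Their summed level was 186 to 190 CPM on chow, 218 to 306 CPM on chow with AQ, 212 to 255 CPM on HFD and 171 to 194 CPM on HFD with AQ. The markers Adgre1, Cd3e, Ms4a1 and Ly6c2 have no row in the table used here. In the list of MHC class II genes, which present antigen to T cells, 7 of 8 were negative with a median of -0.68. Of them 0 passed in limma or edgeR and 1 in DESeq2, and 5 had an unadjusted limma p below 0.05, all lower. H2-Eb1 was nearest to the threshold, at 10.7 ± 0.34 CPM on chow, 19.8 ± 4.9 CPM on chow with AQ, 16.0 ± 2.6 CPM on HFD and 13.0 ± 2.3 CPM on HFD with AQ, an interaction of -1.07 ± 0.25 (limma adjusted p = 0.0567). Outside the lists, the chemokine gene Ccl6 (-1.15 ± 0.26) and the phospholipase family gene Pld4 (-0.85 ± 0.16) were called lower, and were picked out after their values were seen.

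**Figure D4:**
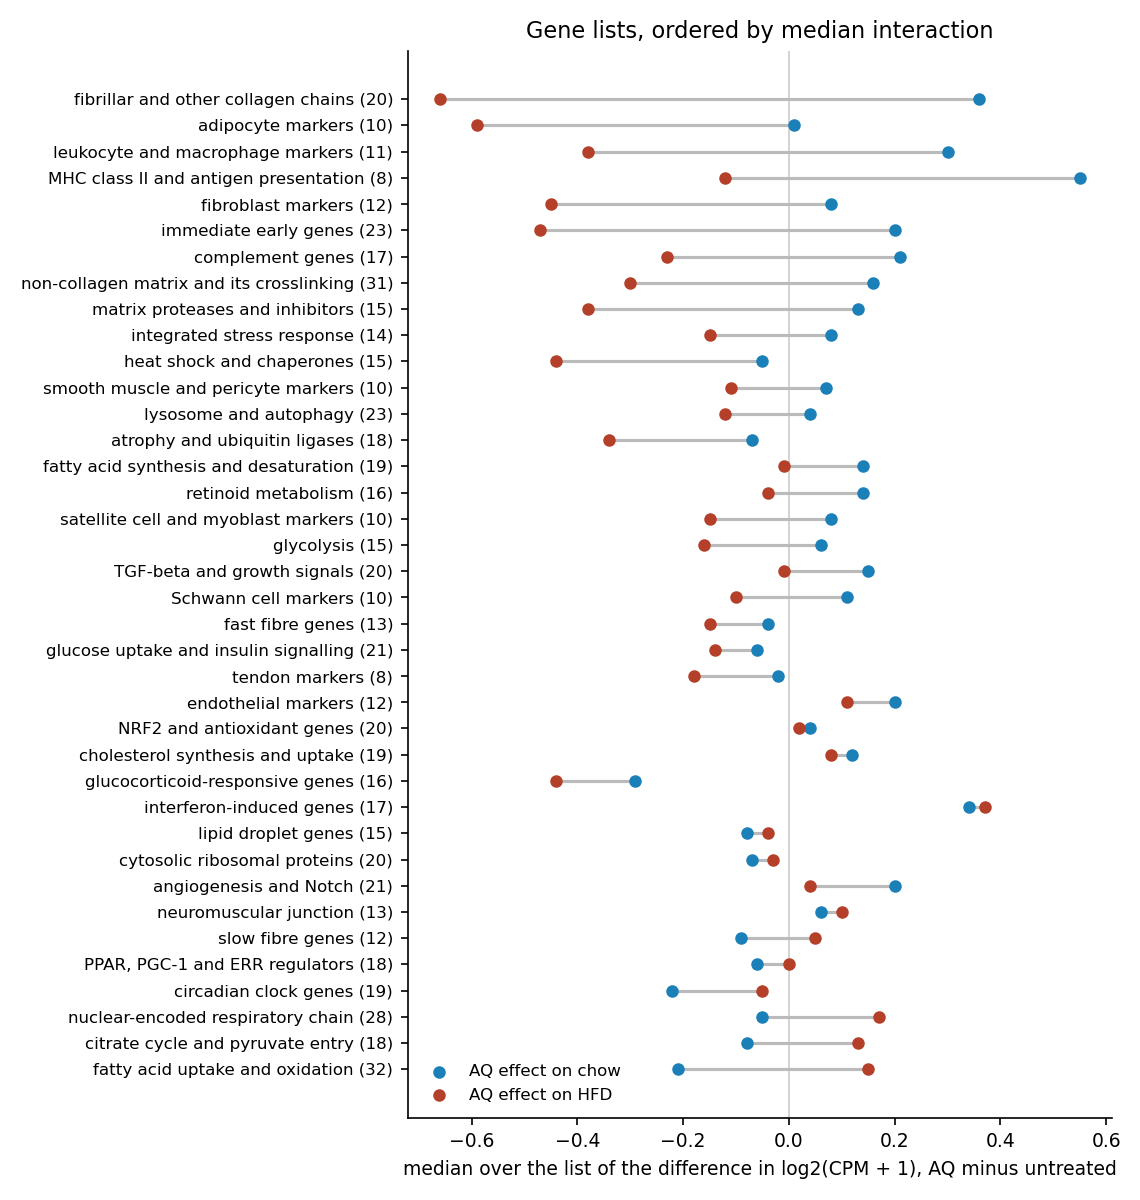
Each row is a gene list with its number of measured genes, and the points give the median AQ effect over the list on chow (blue) and on HFD (red), as differences in log2(CPM + 1). Rows are ordered by the median interaction, from the collagen chains (-1.09) to fatty acid uptake and oxidation (0.38).

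Scd1, the desaturase that makes monounsaturated fatty acids, lies on chromosome 19 from 44394455 to 44407879 (GRCm38, minus strand). It was at 107, 105 and 117 CPM on chow, 200, 211 and 222 CPM on chow with AQ, 255, 227 and 226 CPM on HFD, and 186, 99.0 and 150 CPM on HFD with AQ. All chow libraries lay below those of chow with AQ and of HFD, and HFD with AQ reached down into the chow range. AQ effects were 0.94 ± 0.20 on chow (limma adjusted p = 0.0372) and -0.74 ± 0.20 on HFD (limma adjusted p = 0.139), and the interaction was -1.68 ± 0.29 (limma adjusted p = 0.0223). Of 19 genes of fatty acid synthesis, 15 had a negative interaction, with a median of -0.22, and 2 passed, Scd1 and Mlxipl. Mlxipl encodes the glucose-responsive factor ChREBP and went from 113 ± 7.0 to 136 ± 8.7 CPM with AQ on chow and from 115 ± 10 to 94.3 ± 4.5 CPM on HFD (-0.55 ± 0.10, limma adjusted p = 0.0269).

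Tmem45b, a membrane protein gene, had the most negative interaction of the 89 at low levels. It was at 0.872, 0.626 and 1.16 CPM on chow, 2.40, 3.28 and 2.12 CPM on chow with AQ, 4.84, 6.14 and 6.22 CPM on HFD, and 4.08, 1.68 and 1.48 CPM on HFD with AQ. It was also among the few genes called between diets without AQ (1.84, limma adjusted p = 0.0150), and with AQ the diets differed by -0.14 (limma adjusted p = 0.794). The interaction was -1.98 ± 0.38 (limma adjusted p = 0.0287).

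Markers of adipocytes, which can lie between muscle fibres, were measured beside these lipid genes. Of the 10 measured, 9 had a negative interaction, and 0 passed in limma or edgeR and 2 in DESeq2. An unadjusted limma p below 0.05 was found for 5 in the lower and 1 in the higher direction, beside 8.44% and 5.69% of all genes. The median interaction was -0.96, with a median diet effect of 0.94 without AQ and -0.23 with it. Plin1, the perilipin of fat-cell droplets, was at 3.85 ± 1.8 CPM on chow, 7.30 ± 2.8 CPM on chow with AQ, 10.5 ± 3.2 CPM on HFD and 4.56 ± 2.8 CPM on HFD with AQ (-1.91 ± 0.46, limma adjusted p = 0.0639). The summed level of the 10 was 3669 to 4041 CPM on chow, 3478 to 3531 CPM on chow with AQ, 3897 to 4830 CPM on HFD and 3275 to 3693 CPM on HFD with AQ, and the markers Adrb3 and Ucp1 have no row. Other members of the list set this sum, since Plin1 and Retn had group means of at most 10.5 and 5.73 CPM. It is therefore not taken as a level of fat cells. The part of fat cells in the results for Scd1 and Tmem45b was not tested.

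Genes of oxidative metabolism had mostly positive values and no call in limma, edgeR or DESeq2. Of 32 genes that take up or oxidise fatty acids, 27 had a positive interaction, with a median of 0.38, and 0 passed, while 10 in the higher and 2 in the lower direction had an unadjusted limma p below 0.05, beside 5.69% and 8.44% of all genes. Of 28 nuclear genes of the respiratory chain, 26 were positive, with a median of 0.20, and 0 passed, while 7 had an unadjusted limma p below 0.05, all higher. Of 18 genes of the citrate cycle and pyruvate entry, 17 were positive, with a median of 0.21, and 0 passed, while 3 had an unadjusted limma p below 0.05, all higher. Acadm, the medium-chain acyl-CoA dehydrogenase, had an interaction of 0.44 ± 0.18 (limma adjusted p = 0.269). Its diet effect was 0.35 ± 0.13 without AQ (limma adjusted p = 0.398) and 0.79 ± 0.13 with it (limma adjusted p = 9.71e-04). For the oxidation list the median diet effect was 0.49 without AQ and 0.75 with it.

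Chow library 1 was high for some of these metabolic genes. Acadm was at 460 CPM in that library and at 303 and 297 CPM in the other chow libraries, and Cd36, the fatty acid transporter, was at 653 CPM there against 396 and 355 CPM. Without chow library 1 the median interaction of the oxidation list was 0.16, and that of the citrate cycle list 0.13. Angptl4, an inhibitor of lipoprotein lipase in the same list, pointed the other way. It was at 5.47, 2.02 and 3.08 CPM on chow, 5.92, 1.26 and 7.54 CPM on chow with AQ, 16.5, 16.8 and 12 CPM on HFD, and 4.46, 3.78 and 2.77 CPM on HFD with AQ. The HFD libraries lay above all others, and the interaction of -2.04 ± 0.68 missed the threshold (limma adjusted p = 0.182).

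Clock genes form a loop in which ARNTL with CLOCK or NPAS2 turns on its own repressors, so that activators and repressors peak at different hours. Npas2 was at 1.82, 0.696 and 0.257 CPM on chow, 3.17, 3.56 and 4.69 CPM on chow with AQ, 1.31, 0.249 and 0.668 CPM on HFD, and 0.127, 0.280 and 0.0924 CPM on HFD with AQ. Chow with AQ lay above all other libraries, and the values on HFD with AQ lay near the 3-read floor. The interaction was -1.93 ± 0.37 (limma adjusted p = 0.0287), and Npas2 was called in 6 of the 12 fits that left out a library. With the clock score as a covariate it was -1.20 (limma adjusted p = 0.0791). Npas2 was the only limma call among 19 clock genes, of which 11 had a positive and 8 a negative value. DESeq2 called 4 of the 19 and edgeR 1. An unadjusted limma p below 0.05 was found for 4 in the lower and 4 in the higher direction, beside 8.44% and 5.69% of all genes. Short of the threshold, the activator gene Arntl had -1.72 ± 0.40 (limma adjusted p = 0.0522), and the repressor genes had values of either sign. Nr1d1, which encodes REV-ERB alpha, had -1.60 ± 0.39 (limma adjusted p = 0.0671) and Per2 had 1.57 ± 0.42 (limma adjusted p = 0.0932).

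Arntl was at 29.3, 17.5 and 7.83 CPM in the chow libraries, a wider range than in any other group, and at 36.1, 36.9 and 45.8 CPM on chow with AQ. On HFD it was at 11.8, 8.38 and 8.69 CPM and on HFD with AQ at 5.29, 7.70 and 6.93 CPM. The groups of the contrast so differ in clock gene levels, and AQ and hour of collection cannot be told apart in these values.

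Immediate early genes, which respond within minutes to stress and contraction, had negative values in 22 of 23 members, with a median of -0.58. Of them 0 passed in limma or edgeR and 1 in DESeq2, while 6 had an unadjusted limma p below 0.05, all lower, beside 8.44% of all genes. Jund came nearest, at 32.8 ± 3.0 CPM on chow, 38.4 ± 1.4 CPM on chow with AQ, 34.5 ± 2.0 CPM on HFD and 25.6 ± 4.2 CPM on HFD with AQ (-0.65 ± 0.15, limma adjusted p = 0.0520). Atf3, which had the lowest value of all genes tested at -2.92 ± 1.27 (limma adjusted p = 0.311), was at 22.1, 245 and 7.89 CPM on HFD, so that a single library set its mean.

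Outside these lists, genes of the muscle fibre and of general cell functions were called. Naca encodes the nascent polypeptide-associated complex subunit alpha, with a longer muscle form that takes part in myofibril assembly, and lies on chromosome 10 from 128035575 to 128048637 (GRCm38, plus strand). It was at 568, 587 and 607 CPM on chow, 927, 934 and 871 CPM on chow with AQ, 525, 527 and 487 CPM on HFD, and 436, 452 and 465 CPM on HFD with AQ. All libraries of chow with AQ lay above, and all of HFD with AQ below, the other libraries. The AQ effect was 0.63 ± 0.08 on chow (limma adjusted p = 0.00171) and -0.18 ± 0.08 on HFD (limma adjusted p = 0.345), and the interaction was -0.82 ± 0.11 (limma adjusted p = 0.00705). It was called in all 12 fits that left out a library, as were Zyx and 1500017E21Rik. A table by symbol does not separate the forms of Naca.

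Zyx, which encodes the focal adhesion protein zyxin, was at 31.5, 32.8 and 30.5 CPM on chow, 41.9, 48.2 and 40.8 CPM on chow with AQ, 34.5, 35.9 and 31.6 CPM on HFD, and 28.5, 27.1 and 27.1 CPM on HFD with AQ. As for Naca, both AQ groups lay outside the other libraries on opposite sides, and the interaction was -0.74 ± 0.11 (limma adjusted p = 0.0100). Polr2a, the large subunit of RNA polymerase II, was at 83.9 ± 4.0 CPM on chow, 122 ± 1.4 CPM on chow with AQ, 84.3 ± 3.5 CPM on HFD and 78.9 ± 3.2 CPM on HFD with AQ (-0.63 ± 0.09, limma adjusted p = 0.0100). Most of its difference lay on chow, where the AQ effect was 0.54 ± 0.07, against -0.10 ± 0.07 on HFD. The gene model 1500017E21Rik was at 6.33 ± 0.42, 8.59 ± 0.61, 11.7 ± 1.4 and 6.56 ± 0.44 CPM in the same order of groups, with an AQ effect that passed on HFD (-0.75 ± 0.11, limma adjusted p = 0.0202) and not on chow (0.39 ± 0.11, limma adjusted p = 0.105).

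Auts2, a gene of transcriptional regulation best known in neurons, was at 21.9, 18.2 and 19.3 CPM on chow, 44.6, 33.3 and 45.0 CPM on chow with AQ, 17.3, 12.9 and 20.6 CPM on HFD, and 13.6, 15.1 and 11.7 CPM on HFD with AQ. Chow with AQ lay above all other libraries of the contrast, and HFD with AQ overlapped HFD. The interaction was -1.30 ± 0.22 (limma adjusted p = 0.0223). Pim1, a kinase gene induced by cytokines, was at 7.28 ± 1.8, 17.7 ± 5.7, 6.59 ± 1.3 and 5.01 ± 0.53 CPM in the same order (-1.48 ± 0.33, limma adjusted p = 0.0499), and was called in 2 of the 12 fits that left out a library. Asb2, a ubiquitin ligase subunit that limits muscle mass, was at 679 ± 80, 1017 ± 76, 673 ± 20 and 520 ± 50 CPM (-0.96 ± 0.17, limma adjusted p = 0.0223), with both AQ groups outside the other libraries. Nedd9, a scaffold of focal adhesions, was at 9.68 ± 2.9, 18.2 ± 5.4, 11.9 ± 1.1 and 8.39 ± 0.55 CPM (-1.30 ± 0.27, limma adjusted p = 0.0349). The sphingomyelin synthase gene Sgms2 (-1.29 ± 0.27) and Abcc8, the sulfonylurea receptor subunit of potassium channels (-1.33 ± 0.26), were called at group means of at most 3.55 and 3.25 CPM.

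Slc2a1, the basal glucose transporter GLUT1, was the only call among 21 genes of glucose uptake and insulin signalling, at 10.7 ± 1.8, 17.2 ± 1.8, 14.8 ± 3.7 and 11.2 ± 1.1 CPM (-0.99 ± 0.20, limma adjusted p = 0.0349). It was called in 3 of the 12 fits that left out a library. Slc2a4, the insulin-responsive transporter GLUT4, had 0.07 ± 0.16 (limma adjusted p = 0.888). Cdh15, the M-cadherin of satellite cells, was the only call among 10 satellite cell and myoblast markers (-0.68 ± 0.12, limma adjusted p = 0.0252). Dysf, the membrane repair protein dysferlin, was at 89.7 ± 10.0, 119 ± 1.5, 97.3 ± 3.5 and 90.9 ± 4.8 CPM (-0.50 ± 0.11, limma adjusted p = 0.0374) and was picked out after its values were seen. Lists of fibre proteins held no call, with medians of -0.13 over 13 fast fibre genes and 0.09 over 12 slow fibre genes, both of which changed sign without chow library 1 (0.04 and -0.07). At an unadjusted limma p below 0.05 both lists had 0 genes, and edgeR and DESeq2 called 0.

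**Figure D5:**
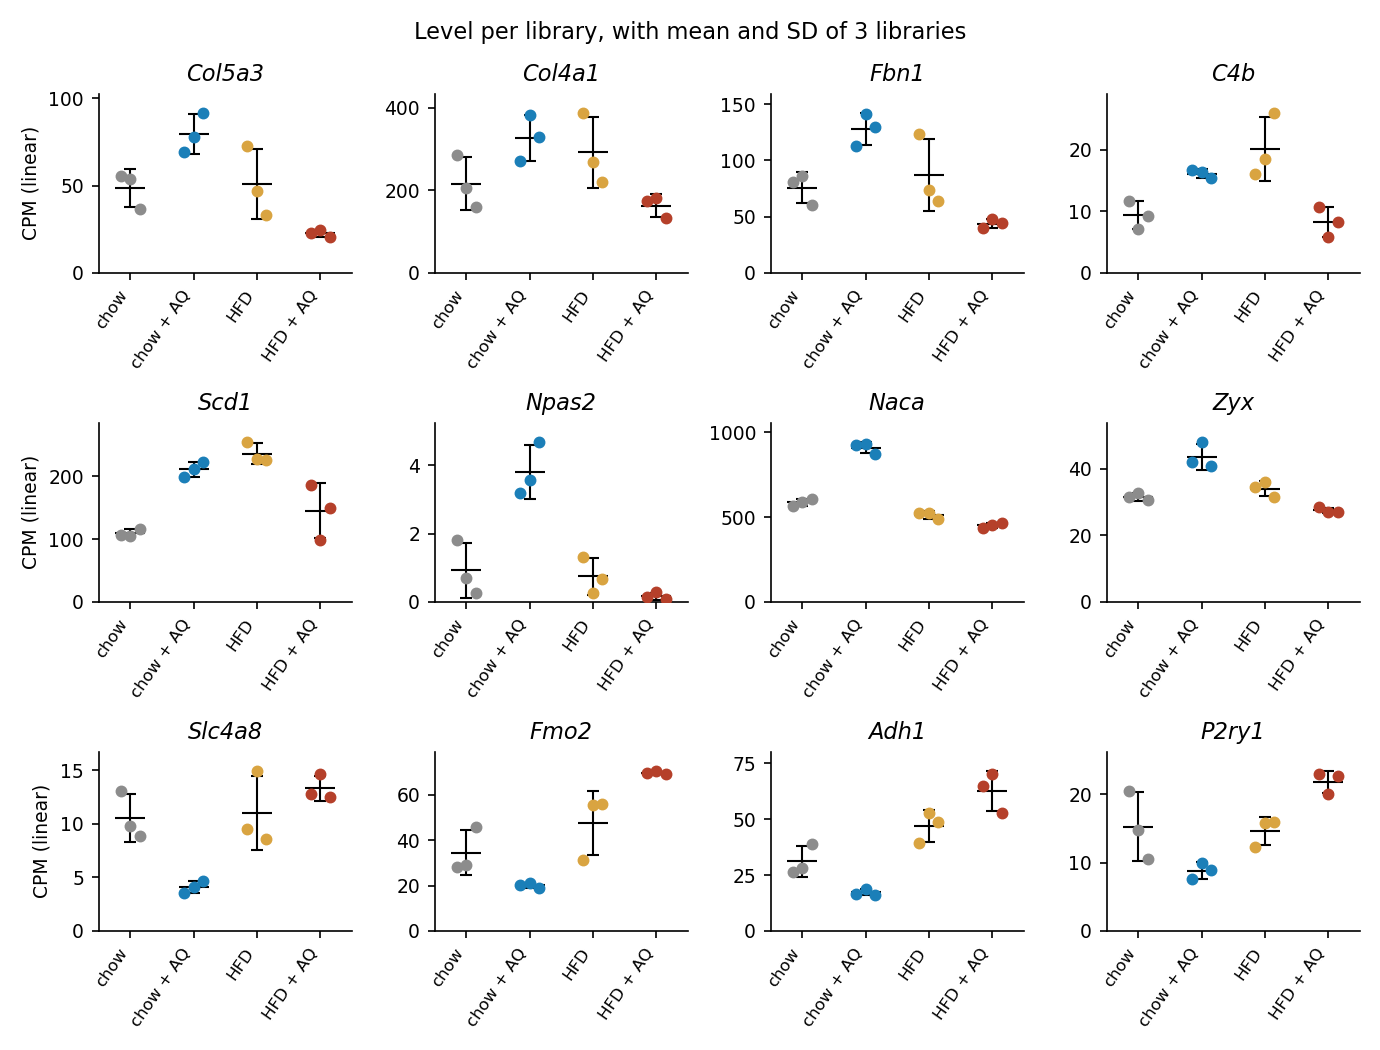
Level in CPM on a linear axis from 0 for 12 genes, with a point per library, the mean as a bar and the SD of 3 libraries as whiskers, in the groups chow, chow with AQ, HFD, and HFD with AQ. In Col5a3 and Fbn1 HFD with AQ lies below all other libraries, in Naca and Zyx both AQ groups stand apart, and in Fmo2 the order is reversed.

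Among the genes whose AQ effect was higher on HFD, Slc4a8 had the largest value. It encodes a sodium-driven bicarbonate exchanger and lies on chromosome 15 from 100761747 to 100823968 (GRCm38, plus strand). It was at 13.1, 9.74 and 8.86 CPM on chow, 3.52, 4.11 and 4.61 CPM on chow with AQ, 9.47, 14.9 and 8.56 CPM on HFD, and 12.8, 14.6 and 12.5 CPM on HFD with AQ. Chow with AQ lay below all other libraries of the contrast, and HFD with AQ overlapped both untreated groups. AQ effects were -1.17 ± 0.20 on chow (limma adjusted p = 0.0165) and 0.29 ± 0.20 on HFD (limma adjusted p = 0.620), and the interaction was 1.46 ± 0.28 (limma adjusted p = 0.0296).

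Fmo2, a flavin monooxygenase of drug and thiol oxidation, was at 28.1, 29.2 and 45.9 CPM on chow, 20.1, 21.3 and 18.7 CPM on chow with AQ, 31.2, 55.6 and 55.9 CPM on HFD, and 69.6, 70.7 and 69.2 CPM on HFD with AQ. Both AQ groups lay outside the other libraries, below on chow and above on HFD, and the interaction was 1.31 ± 0.28 (limma adjusted p = 0.0394). Adh1, an alcohol dehydrogenase that also oxidises retinol, was at 31.2 ± 6.9 CPM on chow, 17.2 ± 1.3 CPM on chow with AQ, 47.0 ± 7.0 CPM on HFD and 62.6 ± 9.1 CPM on HFD with AQ (1.21 ± 0.25, limma adjusted p = 0.0353). It was the only call among 16 genes of retinoid metabolism, of which 10 had a negative value. Hmox1, the haem oxygenase that stands in the same list of antioxidant genes as Fmo2, was called in the other direction, at 8.34 ± 1.1, 9.86 ± 0.70, 11.9 ± 2.1 and 6.67 ± 0.25 CPM (-0.97 ± 0.20, limma adjusted p = 0.0353). It was called in 3 of the 12 fits that left out a library. With the GC trend removed and with the clock score Hmox1 missed the threshold (limma adjusted p = 0.0629 and 0.0549). So did Fmo2 (limma adjusted p = 0.0748 and 0.152) and Adh1 (limma adjusted p = 0.0511 and 0.133). Fmo2 and Adh1 were each called in 4 of the 12 fits that left out a library.

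P2ry1, a receptor for extracellular ADP, was at 20.5, 14.8 and 10.5 CPM on chow, 7.54, 9.97 and 8.93 CPM on chow with AQ, 12.3, 15.9 and 15.9 CPM on HFD, and 22.9, 20.0 and 22.6 CPM on HFD with AQ. Chow with AQ lay below all others, and HFD with AQ lay above all but chow library 1, with an interaction of 1.24 ± 0.25 (limma adjusted p = 0.0349). Other signalling genes also had their lowest mean on chow with AQ and their highest on HFD with AQ, with smaller interactions. Plcb4, a phospholipase C, was at 28.0 ± 1.3, 21.3 ± 0.65, 30.8 ± 3.3 and 37.2 ± 1.8 CPM (0.65 ± 0.11, limma adjusted p = 0.0223). Prex2, a Rac exchange factor, was at 22.9 ± 2.7, 19.0 ± 0.70, 24.4 ± 3.3 and 36.3 ± 4.6 CPM (0.80 ± 0.16, limma adjusted p = 0.0325), and Dusp7, a phosphatase of ERK kinases, was at 24.3 ± 2.0, 16.3 ± 2.4, 26.7 ± 1.9 and 30.5 ± 1.2 CPM (0.75 ± 0.16, limma adjusted p = 0.0353). In all 3 both AQ groups lay outside the other libraries.

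Of the remaining higher genes, Stxbp4, which encodes a syntaxin-binding protein linked to GLUT4 traffic, was at 46.6 ± 13 CPM on chow, 31.0 ± 6.1 CPM on chow with AQ, 39.5 ± 1.2 CPM on HFD and 58.0 ± 4.0 CPM on HFD with AQ (1.09 ± 0.23, limma adjusted p = 0.0374). Lrrn1, a leucine-rich repeat membrane protein gene, was higher on HFD with AQ than in all other libraries, at 31.0, 36.8 and 30.0 CPM (0.94 ± 0.21, limma adjusted p = 0.0467). Of the 12 fits that left out a library, Lrrn1 was called in 1 and Stxbp4 in 2. Rasl11b, a small GTPase gene, had its highest mean on chow, unlike the other 15. It was at 6.10, 5.57 and 5.91 CPM on chow, above all other libraries, and its interaction of 0.91 ± 0.17 came from an AQ effect of -0.71 ± 0.12 on chow (limma adjusted p = 0.0167). Fbxo3, Trub2, Stard7 and Lnp had values from 0.42 to 0.56, Padi1, whose lowest mean was on HFD, one of 0.88 and AW549542 one of 1.16.

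The transgenic line's wild-type controls are another untreated group on HFD, kept on the diet for the same 10 weeks. With them in place of the HFD group, 2127 genes were called, 913 higher and 1214 lower, and 87 of the 89 were among them. The genes Fhl3 (limma adjusted p = 0.180) and Hmox1 (limma adjusted p = 0.0884) were not. All 89 kept their direction, and the median of the 73 lower genes was -1.19 in place of -0.93. The libraries of the other groups stayed the same, and the genes were chosen on them. That favours a kept direction, so nothing is read from it. In those control libraries the clock score was -1.93 to -1.43 and the correlation of level with GC content 0.19 to 0.22, both outside the range of the HFD group. For some called genes these untreated controls lay outside the HFD range, near chow with AQ. Examples were Slc4a8 (3.53, 4.29 and 7.10 CPM), Auts2 (41.9, 40.4 and 42.4 CPM) and Fmo2 (17.1, 19.8 and 26.1 CPM). For others they lay within the HFD range, as for P2ry1 (14.4, 12.7 and 12.3 CPM) and Lrrn1 (18.5, 22.4 and 21.3 CPM). With the mean of both untreated HFD groups, 1054 genes were called, among them all 89. The line of the mice, any batch and these values cannot be told apart as the source of the larger count.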

How the data were processed

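Per the labels' protocols, TRIzol was used to extract RNA, and reads were single-end with 50 bases. TopHat2 2.0.12 and edgeR, with the builds GRCm38 and mm10, are named in the submitters' processing notes; for the counting tool, annotation, strand and gene filter, the sources used here give none. As 1 table, the authors deposited values of 12558 genes by symbol, a scaled CPM signal whose columns sum to between 929993 and 1071538. All values (100% within 1e-06) equalled whole reads multiplied by 1 factor per library, so read counts were recovered for the count tests. Strand use not being stated, overlapping antisense genes may share reads.

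The main test was two-sided, by limma 3.58.1 (R 4.3.3), using lmFit and a trended eBayes on log2(CPM + 1), in 1 fit of all 6 groups that left 12 residual degrees of freedom. A gene was tested where 3 or more of the 18 libraries reached 1 CPM. The Benjamini-Hochberg adjustment ran over 12524 genes, with a threshold of 0.05, and log2(CPM + 1) understates changes of low genes. Values follow as mean ± SD (n = 3) for levels and ± SE for contrasts. Floors of 3 reads cover counting error only. Libraries of a group differed by more than sampling noise (chi-square per degree of freedom at least 4.22). Positions and GC content came from GENCODE for GRCm38, for 12489 genes, of which 465 were matched by an older symbol. edgeR 4.0.16 and DESeq2 1.42.0 on the recovered reads, other pseudocounts, filters, scalings, variance models and controls, a replicate block, subtraction of a loess fit (span 0.3) on GC content within libraries, a clock covariate and leaving out each library were alternatives. The test was tried on simulated data.

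The contrast and the gene lists were chosen with earlier results of these data known, and lists are described by counts and medians with no test. Genes named were the 15 largest interactions each way among those past the threshold with a highest group mean of at least 2 CPM whose AQ and untreated libraries did not overlap in at least 1 diet, leaving out unnamed gene models. Added to them were from each list its called members, at most 4, or, with none called, the 2 of smallest p, and the Nr4a genes. Some genes that the rule names are not reported here. Other genes in the report were chosen after their values were seen.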

Additional observations from a re-analysis of the deposited data

Results flagged for a closer look

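The AQ effect differed between the diets in 89 genes by the test of the difference itself, the limma interaction described in the report.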

How the results depend on the processing

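Against 89 calls, 32 were made with every library rescaled to the same total (13 higher and 19 lower, or 40.6% higher in place of 18%), 31 without the variance trend, 275 with array quality weights, 229 with DESeq2, 25 with the GC trend removed, 30 with the clock score as a covariate, 2127 with the transgenic line's controls as the HFD group and 1054 with the mean of both. Leaving out a library gave 3 to 103. The count stayed within 1.5 times with edgeR (76), other pseudocounts, filters, median-based scalings and a fit of only the 4 groups (62). Of the 62 calls in the fit of only the 4 groups, 45 were among the 89, and 44 of the 89 missed the threshold there. The cause of these changes was not tested. No called gene changed direction in any of these settings, which share libraries on which the genes were chosen. Same-numbered libraries of different groups had correlations of -0.214 to 0.306, 5 of 18 pairs were over 0.1 and 5 of 12 libraries correlated best with their own number, so the numbers were not taken to pair the samples. With a replicate block 107 genes were called, 79 of them among the 89, and with the replicate block and the GC trend removed 53. With 3 libraries a group, the depth of a library limits low genes such as Npas2 and Tmem45b.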

Other observations

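Over 17 interferon-induced genes the median AQ effect was 0.34 on chow and 0.37 on HFD. Their interactions ranged from -1.22 to 0.45 with a median of -0.00, 8 higher and 9 lower, and 0 passed in limma, edgeR or DESeq2, while 1 had an unadjusted limma p below 0.05. The endothelial repressor gene Bcl6b was at 6.20 ± 1.7 CPM on chow, 18.6 ± 1.4 CPM on chow with AQ, 7.11 ± 2.0 CPM on HFD and 12 ± 0.92 CPM on HFD with AQ. Its AQ effect was 1.47 ± 0.22 on chow (limma adjusted p = 0.00585) and 0.71 ± 0.22 on HFD, which missed the threshold (limma adjusted p = 0.192). Its interaction of -0.76 ± 0.31 missed it too (limma adjusted p = 0.287). Fdft1, the squalene synthase of cholesterol synthesis, lay just outside the threshold in the higher direction, at 49.5 ± 3.9, 41.2 ± 3.9, 45.5 ± 4.3 and 55.8 ± 3.8 CPM in the same order (0.55 ± 0.12, limma adjusted p = 0.0502). Erg, an endothelial transcription factor gene, was at 11.2, 10.9 and 10.5 CPM on HFD and 15.6, 17.3 and 16.5 CPM on HFD with AQ, while the chow libraries with and without AQ lay between 9.89 and 12.3 CPM (0.47 ± 0.13, limma adjusted p = 0.0934).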
